A study of Macaca fascicularis with 2 samples.

Results

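Fibrillar collagens are the chains that assemble into the fibrils of connective tissue. The 8 chains *COL1A1*, *COL1A2*, *COL2A1*, *COL3A1*, *COL5A1*, *COL5A2*, *COL11A1* and *COL11A2* were chosen by name. All 8 were among the 21371 genes listed for 1 single-cell library of cynomolgus monkey articular cartilage and nucleus pulposus. Type II collagen, made of *COL2A1* chains, forms the bulk of cartilage fibrils, and type XI collagen, made of *COL11A1* and *COL11A2* chains together with a product of *COL2A1*, starts these fibrils and limits their width. Type I collagen, made of *COL1A1* and *COL1A2* chains, and type III collagen, made of *COL3A1* chains, build the fibrils of fibrous tissue, in which type V collagen, with *COL5A1* and *COL5A2* chains, has the role that type XI has in cartilage. Articular chondrocytes and the chondrocyte-like cells of the nucleus pulposus (NP) are known for type II collagen, whereas notochordal cells (NCs) of the NP are remnants of the embryonic notochord and are known for a gel rich in aggrecan.

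The cells came from articular cartilage (AC) of the femoral condyle and from NP of a lumbar disc of 2 male wild type monkeys, both 3 years old, and the labels give no treatment. According to the labels, 3 tissue samples of AC and NP were pooled, while the cells carried 4 tags, A951 to A954. The study describes the samples as AC and NP of 1 monkey and AC of the other. No source used here pairs a tag with a tissue or an animal, so AC and NP could not be compared, and the tags are given as values and not as replicates. The tissues were digested, the live cells were sorted, and all cells were sequenced as 1 library by TAS-seq, a method that amplifies the cDNA which beads with cell barcodes take up from each cell. The library held 5723 cells with 1354369622 reads on genes and a median of 198057 reads per cell. Of these cells, 5674 carried a single tag, and 5653 of them were kept after limits on quality, with 995, 1125, 1377 and 2156 cells under A951, A952, A953 and A954.

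NCs were defined as cells with 5 or more reads of both *KRT19*, a keratin of notochordal cells, and *TBXT*, the notochord transcription factor brachyury. There were 310 of them, 5.48% of the kept cells (95% exact binomial interval, 4.90 to 6.11), with 67, 236, 5 and 2 cells under A951 to A954. Cells with 100 or more reads per 1000000 reads of the cell (rpm) of both *ASPN*, a small proteoglycan that binds collagen, and *CILP*, a protein of the cartilage matrix, numbered 660 (11.7%, 10.8 to 12.5), with 36, 38, 220 and 366 cells by tag. The remaining 4683 cells (82.8%) are called other cells, and no cell met both rules. The median reads per cell were 186370 in NCs, 271695 in *ASPN* and *CILP* positive cells and 191905 in other cells.

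The label of the NCs was checked against marker genes that were not used to define them. Pooled *NCAM1*, a cell adhesion molecule, stood at 506 rpm in NCs and at 27.6 rpm in other cells, and the hedgehog ligand *SHH* stood at 98.7 and 0.937 rpm. *CDH2*, which encodes N-cadherin, was at 120 rpm against 1.22 rpm, and *CA12*, a carbonic anhydrase, at 52.6 against 6.17 rpm. *FOXA2*, a transcription factor of the notochord, went the other way, at 0.908 against 6.22 rpm. *SHH* was under 1 rpm outside the NCs, so its values only describe the group. *ACAN*, which encodes aggrecan, was at 14440.0 rpm in NCs and 4268 rpm in other cells. The *ASPN* and *CILP* positive cells were also higher than other cells in *CRTAC1* (1803 against 473 rpm) and *IGFBP6* (774 against 349 rpm), which the study lists with *ASPN* and *CILP* as markers of the cell cluster dominated by AC.

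Levels are given as pooled rpm, the reads of a gene over all cells of a group divided by all reads of that group, and as the median of the cells. The reads are not molecules and PCR copies were kept, so the intervals cover counting error only. Since a single library was made, no replicate error is known and no test was made. A gene was counted as higher or lower when its pooled rpm differed by 2-fold or more. The reads of different genes were not corrected for gene length, so levels are compared between cells and not between genes.

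In NCs, 5 of the 8 fibrillar collagens were lower than in other cells by 2-fold or more (*COL2A1*, *COL11A1*, *COL11A2*, *COL1A1* and *COL3A1*), 1 was higher (*COL5A2*), and *COL1A2* and *COL5A1* stayed within 2-fold. With NCs defined from 1 read of both *KRT19* and *TBXT*, 4 were lower, *COL11A2* being at a log2 ratio of -0.81, *COL11A1* at -1.17 and *COL1A1* at -1.83. Of the 10926 genes with at least 1 rpm over all kept cells, 13.9% were lower and 25.2% were higher by 2-fold or more in NCs, with a median log2 ratio of 0.30 against -1.77 for the 8 collagens. In *ASPN* and *CILP* positive cells, 1 collagen was lower (*COL1A1*) and 0 were higher by 2-fold or more, where 6.90% of all genes tested were lower and 2.23% were higher. These counts changed with the measure, since *COL1A1* was at a log2 ratio of -0.97 with each cell thinned at random to 50000 reads and 0.09 with means of log2(rpm + 1), and the alternatives gave 0 to 2 lower and 0 to 3 higher collagens. The median log2 ratio to other cells was -0.02 over all genes and -0.70 over the 8 collagens there.

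**Figure D1:**
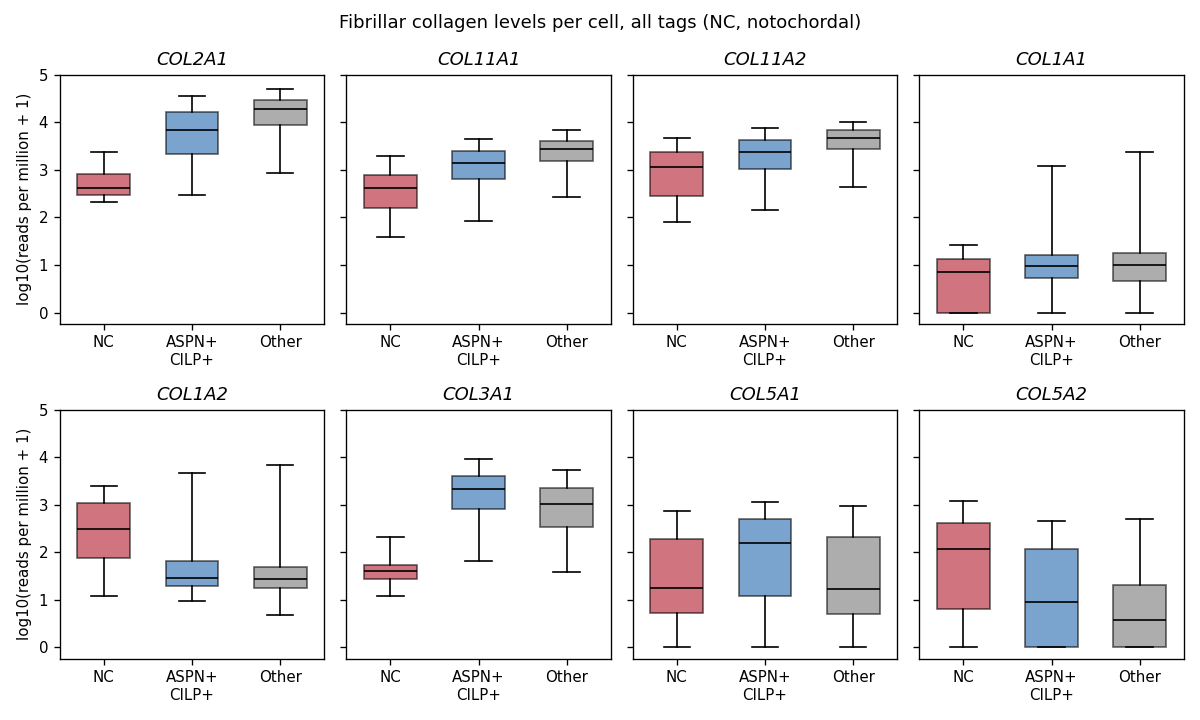
Levels of the 8 fibrillar collagens per cell in NCs (310 cells), *ASPN* and *CILP* positive cells (660 cells) and other cells (4683 cells), all tags together, as log10(rpm + 1). Boxes span the quartiles with the median as a line, and whiskers reach the 5th and 95th percentiles, and NCs are lowest for the type II, XI and III chains and highest for *COL1A2* and *COL5A2*.

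*COL2A1*, the chain of type II collagen, was highest in other cells and lowest in NCs. It ranged from 130 to 129482 rpm over the kept cells, and it had reads in all 5653 of them. The median was 19472 rpm in other cells (quartiles, 8677 and 30199), 6873 rpm in *ASPN* and *CILP* positive cells (2189 and 16749) and 415 rpm in NCs (293 and 833). The ranges between the quartiles overlapped for the first 2 groups, whereas that of the NCs lay below both. The pooled level was 21617 rpm in other cells (exact Poisson interval, 21608 to 21626), 12068 rpm in *ASPN* and *CILP* positive cells (12053 to 12083) and 1269 rpm in NCs (1260.3 to 1277.5).

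By tag, pooled *COL2A1* in other cells was 24575, 24359, 20260 and 20113 rpm under A951, A952, A953 and A954. In NCs it was 1970.0 rpm under A951 and 962 rpm under A952, the tags that held most NCs, 4563 rpm in the 5 cells under A953 and 319 rpm in the 2 cells under A954. All 4 values in NCs were below all 4 in other cells, with log2 ratios within a tag of -3.64, -4.66, -2.15 and -5.98 and a pooled log2 ratio of -4.09. The pooled value was -3.17 without A952 and -1.38 with NCs defined from 1 read. In *ASPN* and *CILP* positive cells the level was 23029, 16508, 9303 and 12411 rpm, and the log2 ratio to other cells was -0.09, -0.56, -1.12 and -0.70. The A951 value thus lay within the range of the other cells, and the lower level in this group came mainly from A953 and A954, which held most of its cells.

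The *COL2A1* reads of NCs were unevenly spread over the cells. The 16 NCs with the highest level held 55.4% of these reads, whereas the 234 highest of the other cells held 21.4% of theirs. *COL2A1* reached 1000 rpm in 69 of 310 NCs (22.3%, 17.8 to 27.3), in 83.6% of *ASPN* and *CILP* positive cells and in 94.3% of other cells. The 69 NCs above 1000 rpm, chosen by *COL2A1* itself, had median levels of 670 rpm *COL11A1*, 2321 rpm *COL11A2*, 705 rpm *COL1A2* and 283 rpm *COL5A2*. The other 241 NCs had 369, 849, 248 and 93.0 rpm of these genes. *COL3A1* had medians of 41.3 and 38.8 rpm and *COL9A1* of 75.6 and 61.3 rpm in the same 2 sets, and *COL5A1* had 37.4 and 15.2 rpm. The *COL2A1*-high NCs thus had higher medians of the type XI, *COL1A2* and type V chains and nearly the same low *COL3A1*. Their medians of *KRT19* (851 against 998 rpm) and *TBXT* (606 against 843 rpm) were lower, and that of *ACAN* was higher (16089 against 9372.5 rpm). Their median depth was 219948 reads against 173743, and the part of depth in these values was not tested.

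The type XI chains followed the same order of the groups as *COL2A1* but with smaller distances. *COL11A1* had median levels of 2741 rpm in other cells, 1379 rpm in *ASPN* and *CILP* positive cells and 425 rpm in NCs, and *COL11A2* had 4710.1, 2379 and 1146 rpm. The pooled log2 ratio of NCs to other cells was -2.14 for *COL11A1* and -1.40 for *COL11A2*. In A951 and A952, pooled *COL11A1* was 959 and 599 rpm in NCs against 3423 and 3470 rpm in other cells, and pooled *COL11A2* was 1896 and 1816 rpm against 5468 and 5389 rpm. Both chains were lower in NCs under every tag, although the log2 ratio of *COL11A2* was -0.95 in the 5 NCs of A953. *COL11A2* reached 1000 rpm in 171 of 310 NCs (55.2%, 49.4 to 60.8), against 90.9% of other cells, and *COL11A1* did so in 59 NCs and 84.2% of other cells.

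In *ASPN* and *CILP* positive cells the type XI chains were lower than in other cells under each tag, with log2 ratios of -0.28, -0.59, -1.23 and -0.50 for *COL11A1* and of -0.23, -0.59, -1.08 and -0.53 for *COL11A2*. The pooled log2 ratios were -0.79 and -0.74, close to the -0.84 of *COL2A1*. The levels by tag overlapped between the groups, since *COL11A1* was at 2825 rpm in the *ASPN* and *CILP* positive cells of A951 and at 2610.5 rpm in the other cells of A954.

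The balance between type XI and type II reads within a cell differed between the groups. *COL11A2* had more reads than *COL2A1* in 198 of 310 NCs (63.9%), in 89 of 660 *ASPN* and *CILP* positive cells (13.5%) and in 305 of 4683 other cells (6.51%). The median log2 ratio of *COL11A2* to *COL2A1* reads was 0.86 in NCs, -1.63 in *ASPN* and *CILP* positive cells and -1.99 in other cells, and that of *COL11A1* to *COL2A1* was -0.67, -2.47 and -2.72. These are ratios of reads and depend on gene length, which is the same in every group.

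The type II and XI chains varied together from cell to cell. Spearman's rho of log2(rpm + 1) was 0.75 for *COL2A1* and *COL11A1*, 0.69 for *COL2A1* and *COL11A2* and 0.66 for the 2 type XI chains over the 5653 cells, which share 1 library. Within NCs it was 0.32, 0.40 and 0.26, within *ASPN* and *CILP* positive cells 0.79, 0.72 and 0.70, and within other cells 0.68, 0.63 and 0.59. Of 9346 genes compared, the 5 most like *COL2A1* were *SPARC*, a collagen-binding matrix protein (0.82), *COL9A1* (0.81) and *COL9A2* (0.75), chains of the type IX collagen on the surface of cartilage fibrils, *COL16A1*, another fibril-associated chain (0.62), and *CHAD*, a cartilage leucine-rich protein (0.58). The rho between *COL2A1* and the total reads of the cell was 0.06.

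**Figure D2:**
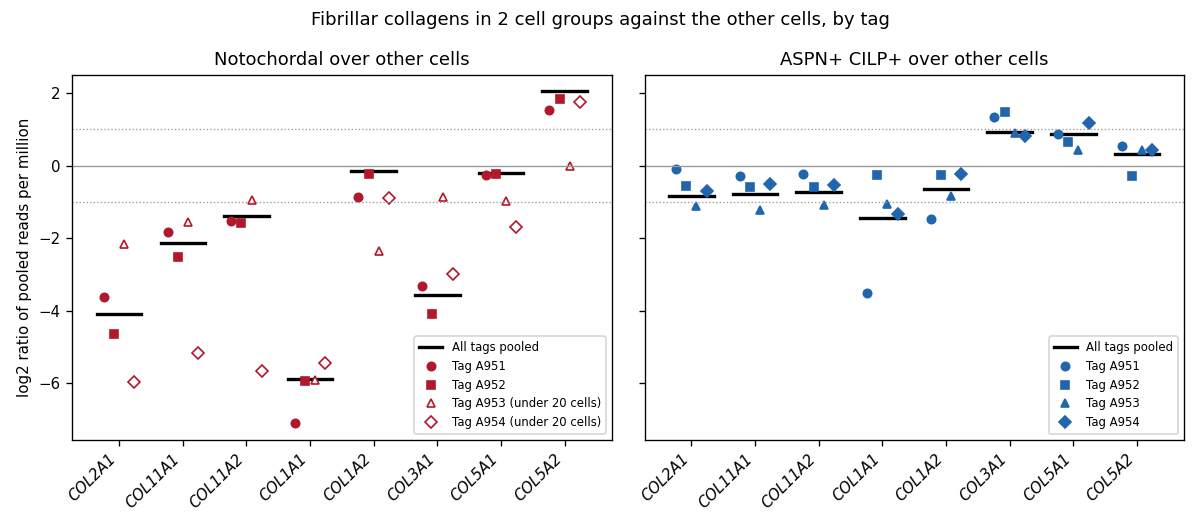
Log2 ratio of pooled rpm to other cells for each collagen, for NCs on the left and *ASPN* and *CILP* positive cells on the right, with a point for each tag, open where the tag held under 20 cells of the group, and a line for all tags pooled. Dotted lines mark 2-fold, and in NCs all chains but *COL5A2* lie below 0 under every tag, while *COL3A1* and *COL5A1* lie above 0 in *ASPN* and *CILP* positive cells under every tag.

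*COL3A1*, the chain of type III collagen, had its highest level in *ASPN* and *CILP* positive cells and its lowest in NCs. The median was 2179 rpm (quartiles, 810 and 4107) in *ASPN* and *CILP* positive cells, 1035 rpm (338 and 2267) in other cells and 38.9 rpm (27.0 and 53.0) in NCs. Pooled levels were 3143, 1645 and 138 rpm. By tag, the *ASPN* and *CILP* positive cells had 4239, 4225.5, 3672 and 2646 rpm, and the other cells 1680.0, 1509, 1971.5 and 1490.5 rpm. The groups did not overlap by tag, and the log2 ratios were 1.34, 1.49, 0.90 and 0.83, but the pooled log2 ratio of 0.93 remained just under 2-fold and the ranges between the quartiles overlapped.

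In NCs, pooled *COL3A1* was 168, 88.5, 1086 and 186 rpm by tag, with log2 ratios to other cells of -3.32, -4.09, -0.86 and -3.00. The pooled log2 ratio was -3.58, -2.43 without A952 and -1.14 with NCs defined from 1 read. It reached 100 rpm in only 25 of 310 NCs (8.06%), against 92.6% of *ASPN* and *CILP* positive cells and 87.0% of other cells. By tag these were 5 of 67 cells, 15 of 236, 4 of 5 and 1 of 2. The 5 NCs of A953 also had more reads and genes (medians, 494207 and 6612) than those of A951 (154155 and 3733) and A952 (191336 and 4132), and the part of this in their *COL3A1* was not tested.

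Free RNA can give reads in cells that do not make a transcript, and the low levels are therefore set beside those of genes that define another group. *ASPN* and *CILP*, pooled over the NCs, stood at 1.36% and 1.99% of their level in the whole library, and *KRT19* and *TBXT* in *ASPN* and *CILP* positive cells at 0.913% and 1.81%, although the rules that chose these cells bear on these genes. Pooled over the NCs in the same way, *COL1A1* stood at 1.96%, *COL2A1* at 6.63% and *COL3A1* at 7.65% of the library level, and only *COL1A1* was within the range of those genes. The median NC had 2.17% of the library level of *COL2A1*, 2.16% of that of *COL3A1* and 1.14% of that of *COL1A1*. The medians of *ASPN* and *CILP* were 0. Their library levels were only 250 and 256 rpm, where such small shares can leave a cell without a read, so these medians are no comparison. The median NC had 15.8% for *COL11A1*, 25.8% for *COL11A2*, 34.6% for *COL1A2* and 134% for *COL5A2*, and the part of free RNA in these values was not tested. The median other cell had 1.62% of the library level of *COL1A1*, 3.05% of that of *COL1A2* and 3.06% of that of *COL5A2*.

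**Figure D3:**
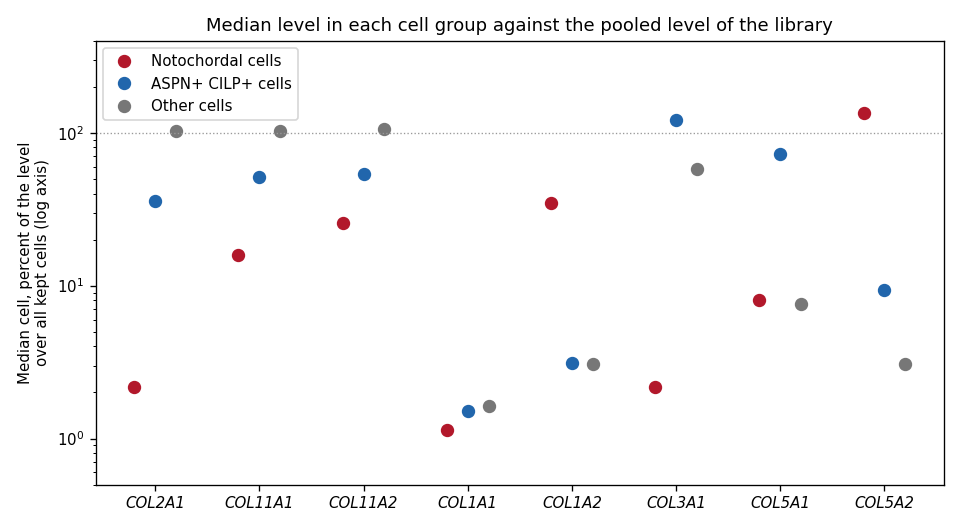
Median rpm of the cells of each group as a percent of the pooled level of all 5653 kept cells, on a log axis, for each collagen. NCs lie near 2% for *COL2A1* and *COL3A1* and at 134% for *COL5A2*, and all 3 groups lie between 1.14% and 1.62% for *COL1A1*.

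*COL1A1* reads came from few cells. In other cells the pooled level was 646 rpm but the median was 8.93 rpm, and the 5% of cells with the highest level (234 cells) held 94.4% of the reads. *COL1A1* reached 1000 rpm in 299 of 4683 other cells (6.38%) and in 38 of 660 *ASPN* and *CILP* positive cells (5.76%, 4.11 to 7.82). It did so in 0 of 310 NCs, for which the exact interval reaches up to 1.18%. The share of other cells at this level was 7.40%, 7.05%, 7.12% and 5.09% under A951 to A954, so each tag held such cells at a similar share.

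Pooled *COL1A1* in other cells was 1064, 723, 539 and 501 rpm by tag, in *ASPN* and *CILP* positive cells 93.5, 606, 260.0 and 200 rpm, and in NCs 7.70, 11.7, 8.82 and 3.803 rpm. The NC values were below all others, with a pooled log2 ratio of -5.90, while those of the first 2 groups overlapped. The pooled log2 ratio of *ASPN* and *CILP* positive cells was -1.45, and -3.51, -0.26, -1.05 and -1.33 by tag, but without the 5% of cells with the highest level it was -0.25. The highest NC had 192 rpm, against 49264 rpm in *ASPN* and *CILP* positive cells and 106385 rpm in other cells. The medians of the cells differed much less than the pooled levels, at 6.27 rpm in NCs, 8.34 rpm in *ASPN* and *CILP* positive cells and 8.93 rpm in other cells, and the log2 ratio of the medians (1 rpm added) was -0.45 for NCs. Without the 5% of cells with the highest level the log2 ratio of NCs to other cells was -2.63, and with means of log2(rpm + 1) it was -1.15. The size of the pooled difference thus depended on the *COL1A1*-rich cells, of which the NCs held 0 at 1000 rpm. NCs were more than 2-fold lower in both of these measures, but neither leaves out all such cells. The 5% left out were 234 of the other cells, whereas 299 of them reached 1000 rpm, and means of log2(rpm + 1) leave out 0 cells. Both measures thus cannot show a difference apart from the *COL1A1*-rich cells.

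*COL1A2*, the partner chain of *COL1A1* in type I collagen, showed another distribution. Its median was 305 rpm in NCs (quartiles, 76.5 and 1106), 27.7 rpm in *ASPN* and *CILP* positive cells (18.3 and 66.0) and 26.9 rpm in other cells (17.04 and 47.6). By tag the medians in NCs were 229, 362, 153 and 231 rpm, and in other cells 27.0, 28.4, 26.2 and 26.7 rpm, so every tag had the higher median in NCs. The pooled levels did not show this, with 852 rpm in NCs and 939 rpm in other cells (log2 ratio, -0.14, and -0.87, -0.23, -2.35 and -0.90 by tag), since 74.95% of the *COL1A2* reads of other cells lay in 5% of the cells. Without the 5% of cells with the highest level in each group, the log2 ratio was 1.06.

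At a level of 100 rpm, 218 of 310 NCs were positive for *COL1A2* (70.3%), 156 of 660 *ASPN* and *CILP* positive cells (23.6%) and 892 of 4683 other cells (19.05%). In 215 NCs (69.4%, 63.9 to 74.4) *COL1A2* was at this level without *COL1A1*, which held for 71.6% of NCs under A951 and 68.6% under A952. The corresponding shares were 13.6% in *ASPN* and *CILP* positive cells and 10.8% in other cells. Both chains were at 100 rpm in 3 NCs, 66 *ASPN* and *CILP* positive cells and 387 other cells. These were all 3 of the *COL1A1* positive NCs, and 91.7% and 92.6% of the *COL1A1* positive cells in the other 2 groups. Of the *COL1A2* positive cells they were 1.38% in NCs, 42.3% in *ASPN* and *CILP* positive cells and 43.4% in other cells.

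The ratio of the reads of the 2 chains differed between the groups. The log2 ratio of pooled *COL1A1* to *COL1A2* reads was -6.30 in NCs, -1.34 in *ASPN* and *CILP* positive cells and -0.54 in other cells, and within NCs it was -6.43 under A951 and -6.31 under A952. With each cell thinned to 50000 reads, which left out 11 NCs, 12 *ASPN* and *CILP* positive cells and 184 other cells, 73.2% of NCs had 5 or more reads of *COL1A2*, against 23.6% and 19.6% of the other groups. Unspliced reads and reads that map to several places were counted with the others, and their share in *COL1A2* cannot be told from the counts.

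**Figure D4:**
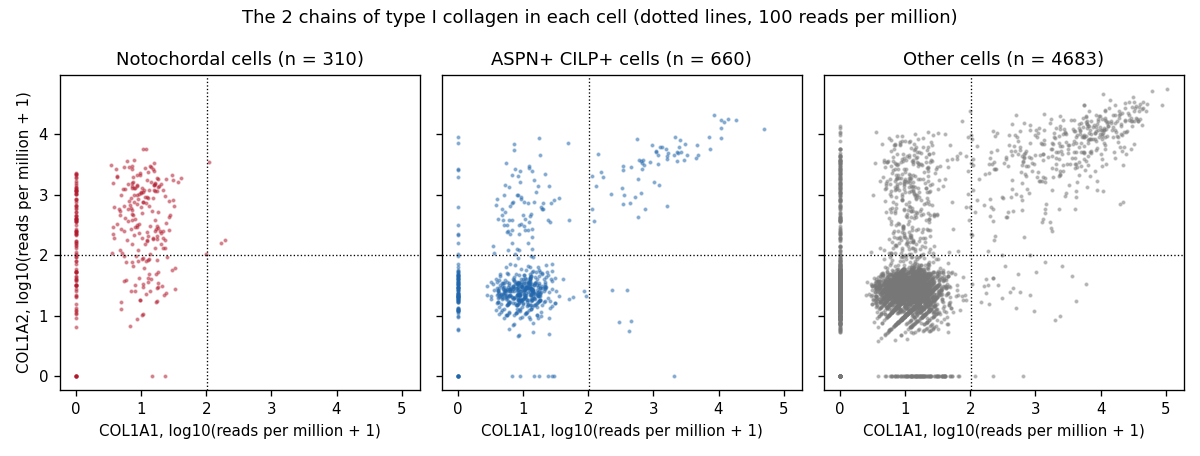
Level of *COL1A2* against level of *COL1A1* in each cell, as log10(rpm + 1), for the 3 groups, with dotted lines at 100 rpm. NCs fill the upper left field, where *COL1A2* is above and *COL1A1* below 100 rpm (215 of 310 cells), while the upper right field, with both chains above, holds 387 of 4683 other cells.

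*COL5A2*, a chain of type V collagen, was the member with the higher pooled level in NCs, at 306 rpm against 91.5 rpm in *ASPN* and *CILP* positive cells and 73.7 rpm in other cells. The medians were 118, 8.17 and 2.69 rpm. By tag the pooled level was 230.4, 335, 87.7 and 190.2 rpm in NCs and 79.3, 93.1, 87.9 and 55.7 rpm in other cells. NCs were higher in 3 of 4 tags, with log2 ratios of 1.54 under A951, 1.85 under A952 and 1.77 in the 2 cells of A954. Under A954, 1 cell held all 50 reads of *COL5A2* in NCs. The log2 ratio was 0.00 in the 5 cells of A953, and the pooled log2 ratio was 2.05. *COL5A2* reached 100 rpm in 53.5% of NCs, 27.4% of *ASPN* and *CILP* positive cells and 796 of the 4683 other cells. *COL1A2* and *COL5A2* were both at this level in 41.0% of NCs, 11.2% of *ASPN* and *CILP* positive cells and 8.50% of other cells.

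*COL5A1*, the other chain of type V collagen, was not raised in NCs. Its pooled level was 164 rpm in NCs, 343 rpm in *ASPN* and *CILP* positive cells and 187 rpm in other cells, and the medians were 16.8, 153 and 15.8 rpm. By tag, the *ASPN* and *CILP* positive cells had 371, 307, 265 and 389.5 rpm and the other cells 202, 195, 197 and 173 rpm, which did not overlap. The log2 ratios by tag were 0.88, 0.66, 0.43 and 1.17 and the pooled one was 0.87, and 56.4% of *ASPN* and *CILP* positive cells reached 100 rpm against 32.8% of other cells. *COL5A2* in these cells was at 114, 76.9, 118 and 75.5 rpm by tag, which overlapped with other cells. The 2 chains of type V collagen thus differed in the group in which they were highest, and their rho across all cells was 0.20.

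The ratio of *COL1A1* to *COL2A1* reads, a measure often used for the balance of fibrous and cartilage collagen, was taken per cell as log2 of the ratio with 1 read added to both genes. The median was -5.35 in NCs (quartiles, -6.42 and -4.39), -9.01 in *ASPN* and *CILP* positive cells (-10.46 and -6.44) and -10.24 in other cells (-11.16 and -8.70). The ratio was thus higher in the median NC than in the median cell of the other groups. Median *COL1A1* was low in every group, at 1.14% of its library level in NCs, 1.51% in *ASPN* and *CILP* positive cells and 1.62% in other cells. Median *COL2A1* was at 2.17%, 35.9% and 102% of its library level in the same order. The medians of the ratio thus differed mainly with *COL2A1*. The order was not the same for pooled reads, whose log2 ratio was -6.88 in NCs, -5.68 in *ASPN* and *CILP* positive cells, -5.07 in other cells and -5.12 over all kept cells. By tag the median was -5.36, -5.32, -7.01 and -4.66 in NCs, -9.78, -10.04, -7.75 and -9.19 in *ASPN* and *CILP* positive cells and -10.40, -10.23, -9.99 and -10.28 in other cells. The spread between the tags was 1.02 (SD over 4 tags) in *ASPN* and *CILP* positive cells and 0.17 in other cells, and both groups were closest to each other under A952.

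More *COL1A1* than *COL2A1* reads were found in 0 of 310 NCs (up to 1.18%), in 17 of 660 *ASPN* and *CILP* positive cells (2.58%, 1.51 to 4.09) and in 141 of 4683 other cells (3.01%, 2.54 to 3.54). Among other cells these were 31, 19, 45 and 46 cells under A951 to A954, or 3.48%, 2.23%, 3.91% and 2.57%. The cell closest to equal reads among the NCs had a log2 ratio of -0.25. The highest values were 5.30 in *ASPN* and *CILP* positive cells and 6.09 in other cells.

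**Figure D5:**
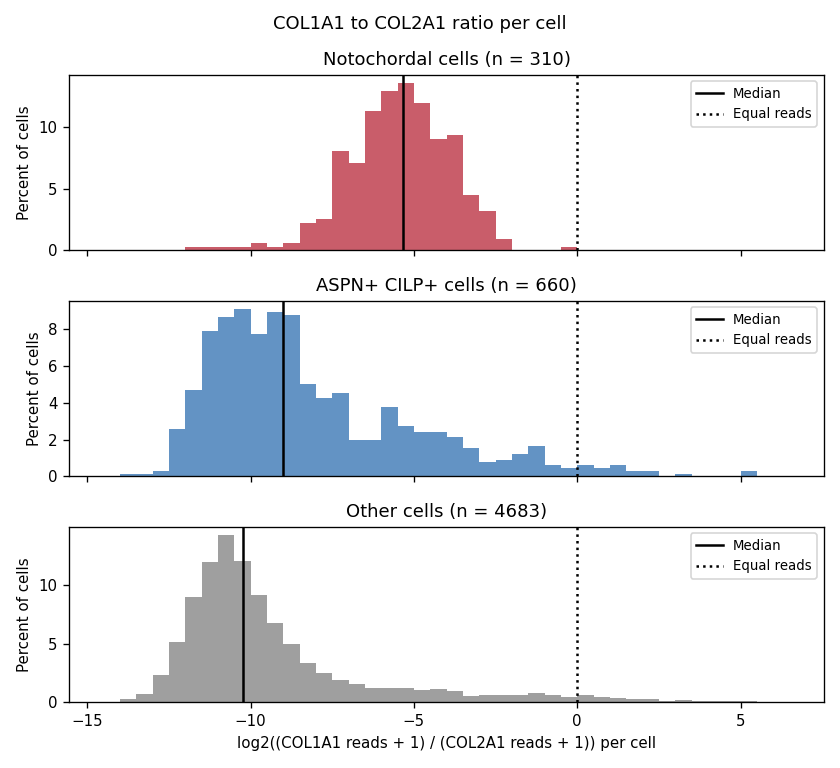
Distribution of the log2 ratio of *COL1A1* to *COL2A1* reads per cell, with 1 read added to both, in percent of the cells of each group. The solid line is the median (-5.35, -9.01 and -10.24 from top to bottom) and the dotted line marks equal reads, which 0 NCs, 17 *ASPN* and *CILP* positive cells and 141 other cells exceed.

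The 158 cells with more *COL1A1* than *COL2A1* reads were chosen by these 2 genes, so their levels of both follow from the choice. They held 61.2% of all *COL1A1* reads and 33.7% of all *COL1A2* reads of the library. Compared with the other 5185 cells outside the NCs, pooled *COL1A2* was 11805 against 587 rpm, *COL5A2* 296 against 70.6 rpm and *COL3A1* 2609 against 1868 rpm. *COL11A1* was 1715 against 2818 rpm, *COL11A2* 2659 against 4623 rpm and *COL2A1* 6040 (median, 2002) against 20454 rpm (18325). *SOX9*, the cartilage transcription factor, was at 336 against 346 rpm. Their median depth was 174240 against 200205 reads.

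Other matrix genes also differed between these 158 cells and the rest. *PCOLCE*, the enhancer of procollagen C-proteinase, was at 1556 against 740 rpm (medians, 1245 and 484 rpm). Of the same list, *TLL1* was higher (34.9 against 15.3 rpm). *PCOLCE2* (261 against 578 rpm), *ADAMTS3* (20.1 against 47.5 rpm) and *ADAMTS14* (0.473 against 3.16 rpm) were lower. The collagenase *MMP1* was at 400 against 89.5 rpm, and *COL5A3*, a further type V chain, at 36.7 against 2.68 rpm. All of these but *PCOLCE* and *PCOLCE2* had medians of 0 in both sets, so their pooled differences came from part of the cells. The type IX chain *COL9A1* was lower, at 1527 against 5300 rpm. So was *CNMD*, which encodes chondromodulin, at 1.60 against 190 rpm, with medians of 0 in both sets. *CRTAC1* (1518 against 666 rpm) and *IGFBP6* (1086 against 399 rpm) were higher, whereas *CILP* was lower (74.3 against 274 rpm).

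Markers of other cells that make type I collagen were given beside these values. The summed level of 5 osteoblast markers was 18.7 rpm in the 158 cells and 60.9 rpm in the rest. *IBSP*, a bone sialoprotein and the most abundant marker of the list in the library, was at 0.355 and 30.8 rpm. *BGLAP* (9.73 and 20.0 rpm) and *ALPL* (0.740 and 4.37 rpm) were also lower, whereas *DMP1* was higher (7.81 and 5.62 rpm). *SP7*, the osteoblast transcription factor, was under 1 rpm in both sets. All 5 had medians of 0 in both sets, so their pooled differences came from part of the cells. The tendon markers summed to 8888 and 7346 rpm, almost all of it *FMOD*, a collagen-binding proteoglycan that cartilage also makes, with tenomodulin (*TNMD*) under 1 rpm in both. Among these tendon markers, *THBS4* was higher in the 158 cells (log2 ratio to the rest, 0.69) and *MKX* was lower (-2.24). Both had medians of 0 in both sets, so these differences also came from part of the cells. The markers of synovial and other fibroblasts summed to 18710.0 and 13206 rpm, of which *PRG4*, the lubricant of the cartilage surface, held 18210.0 and 12415 rpm. The rest of this list went both ways, with *THY1* at 387 and 373 rpm, *PDPN* at 93.9 and 411 rpm and *DPT* at 18.3 and 6.62 rpm. Pericyte and smooth muscle markers summed to 73.6 and 34.1 rpm, with *PDGFRB* at 66.9 and 22.3 rpm and the other 3 markers, *ACTA2* (4.20 and 6.60 rpm), *RGS5* (0.858 and 3.07 rpm) and *MYH11* (1.63 and 2.18 rpm), lower in these cells. Blood and immune markers summed to 32.7 and 19.5 rpm, and endothelial markers to 1.98 and 2.62 rpm. The part of other cell types in the *COL1A1* reads was not tested.

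The same lists were compared over the 3 groups, and the counts stand beside the 25.2% of all genes that were higher and the 13.9% that were lower in NCs, and the 2.23% and 6.90% in *ASPN* and *CILP* positive cells. Of the 4 osteoblast markers tested, 4 were lower than in other cells by 2-fold or more in NCs and 4 in *ASPN* and *CILP* positive cells. The list summed to 6.01 rpm in NCs, 10.4 rpm in *ASPN* and *CILP* positive cells and 69.4 rpm in other cells. All 4 had medians of 0 in the 3 groups, so these differences came from few cells. In the same order, reads were found in 9.35%, 11.7% and 9.82% of cells for *IBSP* and 9.68%, 12.4% and 9.89% for *ALPL*. The shares were 3.87%, 6.97% and 6.17% for *BGLAP* and 2.58%, 4.85% and 4.29% for *DMP1*. The 3 tendon markers tested gave 1 lower in NCs and 2 lower in *ASPN* and *CILP* positive cells, the 4 fibroblast markers 4 and 1 lower, and *PRG4* stood at 1138, 18795 and 11367 rpm. The 4 pericyte and smooth muscle markers gave 2 higher in each group and summed to 92.9, 34.1 and 35.4 rpm, with *ACTA2*, the smooth muscle actin, at 70.7 rpm in NCs and 5.57 rpm in other cells. Blood and immune markers summed to 20.5, 21.3 and 19.6 rpm and endothelial markers to 3.07, 2.23 and 2.67 rpm, with 1 of 2 and 0 of 1 tested markers higher in NCs. Of the 7 chondrocyte markers, 2 were higher (*ACAN* and *SOX9*) and 5 lower in NCs, and 2 were lower in *ASPN* and *CILP* positive cells. The 6 markers of the AC-dominated cluster gave 1 higher (*PRSS23*) and 5 lower in NCs, and 5 higher in *ASPN* and *CILP* positive cells, 2 of which define these cells, and the study chose this list on cells that include these, so it is no independent evidence. Of the 7 notochordal markers, 5 were lower in *ASPN* and *CILP* positive cells. These 5 include *SHH*, at 0.378 rpm there and 0.937 rpm in other cells. *SHH* passed the limit of 1 rpm only through the NCs, so its place in this count is no evidence of a difference. The median log2 ratios in NCs and in *ASPN* and *CILP* positive cells were -2.67 and -0.82 for the chondrocyte list, -2.62 and 1.54 for that of the AC-dominated cluster, -2.86 and -2.40 for the osteoblast, -0.84 and -2.37 for the tendon and -3.51 and 0.36 for the fibroblast list.

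The genes that make, export, process and bind fibrillar collagen were taken from lists by role, in which 62 genes were listed, 55 were present and 52 had at least 1 rpm. In NCs, 7 were higher and 23 were lower than in other cells by 2-fold or more, beside the 25.2% and 13.9% of all genes, and in *ASPN* and *CILP* positive cells 1 was higher and 7 were lower, beside 2.23% and 6.90% of all genes. Among the remaining fibrillar chains (median log2 ratio, -0.44 in NCs and -0.74 in *ASPN* and *CILP* positive cells), *COL5A3* was lower in NCs (log2 ratio, -2.85) and higher in *ASPN* and *CILP* positive cells (1.22), at a pooled level of only 3.42 rpm in the library. *COL27A1*, the most abundant of them, was at 285, 196 and 338 rpm in NCs, *ASPN* and *CILP* positive cells and other cells, and *COL24A1* at 5.27, 4.27 and 7.13 rpm.

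The fibril-associated collagens, which coat the fibrils, were lower in NCs in all 5 tested chains, with a median log2 ratio of -4.31 in NCs and -0.89 in *ASPN* and *CILP* positive cells. *COL9A1* was at 236, 2823 and 5659 rpm in NCs, *ASPN* and *CILP* positive cells and other cells, and the log2 ratios of NCs to other cells were -4.59 for *COL9A1*, -3.37 for *COL9A2*, -3.25 for *COL12A1*, -4.31 for *COL14A1* and -4.41 for *COL16A1*. *COL9A1* and *COL14A1* (log2 ratio, -1.01) were also lower in *ASPN* and *CILP* positive cells, both only just past 2-fold. *COL9A1* and *COL9A2* are also among the chains whose level followed *COL2A1* from cell to cell.

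Enzymes and chaperones that act on the chains inside the cell had median log2 ratios of -0.61 in NCs and 0.09 in *ASPN* and *CILP* positive cells. Of the 11 tested, 1 was higher in NCs, *P3H4*, part of a collagen-modifying complex (log2 ratio, 1.42), and 1 was lower, the lysyl hydroxylase *PLOD1* (-1.06). The collagen chaperone *SERPINH1* (HSP47) had a log2 ratio of -0.99, and *PLOD2*, the most abundant gene of the list, was at 960 rpm in NCs and 1628 rpm in other cells. The number past 2-fold was 0 of 11 in *ASPN* and *CILP* positive cells. For the export of procollagen and its control, 6 genes were tested (medians, 0.46 and 0.02), and *MIA2* (1.45) and *CREB3L2* (1.15) were higher and *CREB3L1* (-2.14) was lower in NCs, with 0 past 2-fold in *ASPN* and *CILP* positive cells.

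The genes that act on the chains outside the cell were mostly lower in NCs. Of 7 propeptide-processing genes (medians, -2.71 in NCs and -0.36 in *ASPN* and *CILP* positive cells) 5 were lower, among them *PCOLCE* (77.3 against 790.3 rpm) and *PCOLCE2* (21.5 against 623 rpm), whereas *ADAMTS2*, the procollagen N-proteinase, was higher (58.0 against 24.3 rpm) and *BMP1*, the C-proteinase, was within 2-fold (26.6 against 25.7 rpm). Of 5 cross-linking enzymes (medians, -1.41 and 0.11) 4 were lower, including *LOX* (log2 ratio, -2.46) and *LOXL3* (-3.14). Among the processing genes, *PCOLCE2* (-1.09) and *ADAMTS3* (-2.31) were lower in *ASPN* and *CILP* positive cells, and 0 of 5 cross-linking enzymes passed 2-fold there.

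Among collagen receptors, *DDR1*, a receptor tyrosine kinase for collagen, was higher in NCs (303 against 43.0 rpm; log2 ratio, 2.82), and the integrin chains *ITGA2* (-3.67), *ITGA10* (-3.76) and *ITGA11* (-1.50) were lower, of 7 tested (medians, -0.42 in NCs and -0.32 in *ASPN* and *CILP* positive cells). *ITGB1*, the common partner of these integrin chains, was at 626 and 728 rpm. Of 4 collagen-degrading proteases tested (medians, -2.23 and -0.24), 3 were lower in NCs, namely *MMP1* (-5.62), *MMP2* (-3.20) and *CTSK* (-1.26), and *MMP14* was at 125 and 127 rpm. Of 4 transcription factors tested (medians, 0.82 and 0.07), *SOX9*, which drives *COL2A1* in cartilage, was higher in NCs, at 1120 against 343 rpm, and so was *RUNX2*, at a low 8.13 against 3.79 rpm. *SOX9* was thus highest in the group with the lowest *COL2A1*. Lower in *ASPN* and *CILP* positive cells was 1 gene each among the receptors (*ITGA2*, -1.44), the proteases (*MMP2*, -1.10) and the regulators (*RUNX2*, -1.61).

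The genes most like *COL1A1* across cells had weak correlations. Spearman's rho was 0.14 for *PCOLCE* and for *TNC*, the matrix protein tenascin C, 0.12 for *ELN*, which encodes elastin, and for *SEMA3D*, and 0.11 for *TNNT3*, and it was 0.10 for the total reads of the cell. The rho of *COL1A1* with *COL1A2* was 0.22 over all cells and 0.12 in NCs.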

How the data were processed

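The authors aligned reads with HISAT2 2.2.1, assigned them to whole genes with featureCounts 2.0.2, without dropping reads with more than 1 possible place or gene, and used velocyto without molecular identifiers to add them up per cell. The authors deposited raw counts of reads per gene and cell, spliced and unspliced reads combined. The genome build is not given in the sources used here, so no coordinates or sequences are printed. Here, cells with a single tag, 200 to 9000 genes and under 5% mitochondrial reads over 13 genes were kept. The 42 cells with several tags were removed as doublets, and doublets within a tag cannot be seen. No barcode occurred in more than 1 column. The tag library holds no expression, and a second matrix, which the labels do not list, was not used.

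With Python 3.11.15 (scipy 1.17.1, numpy 2.4.6, pandas 2.3.3), values were obtained as pooled rpm with 95% exact Poisson intervals and as shares of cells with 95% exact binomial (Clopper-Pearson) intervals, and the calculations were tested on simulated data. The study's test over cells was not used, because cells are not replicates. Background shares are over genes with at least 1 rpm in all kept cells. Named genes were the 8 collagens, the genes that define the groups, the 5 genes with the highest Spearman correlation with *COL1A1* and with *COL2A1* among genes detected in at least 10% of the cells, and the members of the role and marker lists that passed 2-fold or were most abundant. Outside this rule, *SERPINH1*, *BMP1*, *MMP14*, *COL24A1*, *TNMD* and *SP7* were named after their values were seen. The 158 cells rich in *COL1A1*, and the genes named for them, were described after their values were seen. The collagens, groups and lists were chosen with earlier results of these data known. *COL9A3*, *P4HA2*, *P4HA3*, *P4HB*, *P3H3*, *COLGALT1* and *SCX* of the role lists and *KRT8*, *KRT18*, *CD24*, *NOG*, *COMP*, *CD248* and *HBB* of the marker lists were not among the genes counted here.

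Alternatives were no quality limits, at least 1000 genes per cell, each tag left out, cells thinned to 50000 reads, other read limits for both groups, other cells without *KRT19* or *TBXT* reads, means over cells of rpm and of log2(rpm + 1), a total without the 8 collagens, centring on the median gene, the mean of ratios within tags, other limits on genes tested, 10 reads added to the ratio, and cells with 10 or more reads of both genes together. The ratio of medians, and leaving out the 5% of cells with the highest level, were added after the data were seen.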

Additional observations from a re-analysis of the deposited data

How the results depend on the processing

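The values rest on 1 library and on the few cells with many *COL1A1* reads, and tags with under 20 NCs give no firm value of their own. Over 21 alternatives the log2 ratio of NCs to other cells kept its sign for *COL2A1* (-5.55 to -1.38), *COL11A1* (-2.69 to -1.17), *COL11A2* (-2.16 to -0.81), *COL1A1* (-6.53 to -0.45), *COL3A1* (-5.06 to -1.14) and *COL5A2* (1.56 to 5.01), and the number of lower collagens was 4 or 5. Defining NCs from 1 read gave the values nearest 0 for *COL2A1* (-1.38, against -4.09), *COL3A1* (-1.14, against -3.58) and *COL11A2* (-0.81, against -1.40, no longer 2-fold), and moved *COL1A1* from -5.90 to -1.83. Without A952, *COL2A1* was at -3.17 and *COL3A1* at -2.43. *COL1A2* ran from -0.63 to 3.45 and *COL5A1* from -0.49 to 0.08. Means of log2(rpm + 1), the ratio of medians and leaving out the 5% of cells with the highest level each gave 2 higher collagens in NCs, *COL1A2* being the second (log2 ratios, 2.32, 3.45 and 1.06).

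In *ASPN* and *CILP* positive cells the number of lower collagens was 0 after thinning (where *COL1A1* was at -0.97) and without the top 5% of cells, and 2 with means of log2(rpm + 1), where *COL1A1* turned to 0.09. The number of higher collagens was 3 with means of log2(rpm + 1) and with the ratio of medians, and 1 with the mean of ratios within tags and without the top 5%. Leaving out a tag gave 1 to 2 lower and 0 to 1 higher collagens. Without A954, *COL11A1* was at -1.05 and *COL3A1* at 1.11, and without A953, *COL5A1* was at 1.05.

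The median log2 ratio of *COL1A1* to *COL2A1* was -4.17 in NCs, -7.83 in *ASPN* and *CILP* positive cells and -9.29 in other cells after thinning, and -3.00, -7.03 and -8.08 with 10 reads added, both of which raise a ratio with few reads by construction. It was -5.82 for NCs defined from 1 read and -5.41 to -5.32 without 1 tag. The order of the 3 groups was the same in each of these. Ratios within tags compare cells of 1 tag and are given above as an alternative. No paired analysis of replicates was possible because the labels list 1 expression sample and so give no replicate numbers.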

Other observations

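Cells that met the rule of a group for 1 of its 2 genes were also measured. The 53 cells with 5 or more *KRT19* but fewer *TBXT* reads had a median of 550.1 rpm *COL2A1*, 1216 rpm *COL11A2*, 86.1 rpm *COL1A2* and 64.1 rpm *COL3A1*, all 4 between the medians of NCs and other cells. Their median of *COL5A1*, 8.67 rpm, was instead below the 16.8 rpm of NCs and the 15.8 rpm of other cells. Their pooled *COL2A1* was 6653 rpm, over 5 times the 1269 rpm of the NCs. The 32 cells with the reverse pattern had a median of 11205 rpm *COL2A1* and 31.1 rpm *COL1A2*.

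*ASPN* and *CILP* alone marked cells with different collagen levels. The 577 cells with 100 rpm of *ASPN* only had medians of 6753 rpm *COL2A1*, 1395 rpm *COL11A1* and 1513 rpm *COL3A1*, and a pooled *COL1A1* of 1098 rpm. The 729 cells with *CILP* only had 26678 rpm *COL2A1*, 2911 rpm *COL11A1* and 1956 rpm *COL3A1*, and a pooled *COL1A1* of 91.3 rpm. The 3377 cells with neither had 19927, 2895 and 844 rpm, and a pooled *COL1A1* of 705 rpm. The medians of *COL1A1* were alike in these sets, at 9.20, 9.13 and 8.81 rpm, so its pooled differences came from few cells. The lower *COL2A1* of cells positive for both was thus shared by the *ASPN* only cells and not by the *CILP* only cells, while *COL3A1* was higher with either gene than with neither. These sets were compared after their values were seen, and no test was made.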
